A study of Rattus norvegicus with 30 samples.

Results

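The genes described here are 150 of the 26404 genes counted in the perilesional cortex, the ipsilateral thalamus and the dorsal hippocampus of rats with traumatic brain injury (TBI) and of sham-operated rats. They were chosen by their own TBI values. For each gene and area, d is the mean of log2(CPM + 1) in rats 6 to 10 (TBI) minus the mean in rats 1 to 5 (sham), where CPM is the count per 1000000 counts of the library. Of the 10572 genes with a mean CPM of at least 5 in all 3 areas, the 150 with the lowest value of their largest d were taken and ranked in that order. The members were picked as genes that fall in every area, and on the scale of the rule the data go against that name. On that scale of the rule only 7 of the 150 (ranks 1 to 7) had d below 0 in all 3 areas, and these were all such genes among the 10572 (0.0662%). The count depends on the scaling. With TMM library sizes, described below, it was 114, beside 32.3% of all genes with a mean CPM of at least 5. By the scale of the rule without the hippocampal libraries of sham rats 4 and 5 it was 76, beside 8.08%. The 150 are therefore called the genes with the lowest largest d, or members. All differences between TBI and sham below describe the values that chose them and carry no test.

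All rats were adult male Sprague-Dawley animals that were anaesthetised for surgery, and the 5 TBI rats received a lateral fluid-percussion injury, in which a pressure pulse of fluid hits the exposed dura on 1 side of the brain. The 5 sham rats were operated on without the impact. Tissue was taken 3 months later, and each rat gave a library of each area, 30 libraries in all. The hippocampal sample was, per the protocol, the dentate gyrus with the adjoining part of CA3, although its label reads dorsal hippocampus. The rats are outbred animals of 1 sex at 1 time point, and every sample is bulk tissue, in which fewer cells of a type and less RNA per cell cannot be told apart.

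Lateral fluid-percussion injury leaves a cortical lesion that goes on growing for weeks, and the thalamic nuclei wired to the damaged cortex lose neurons and gain reactive glia with delay. The dentate gyrus loses interneurons and part of its input while its granule cells largely survive. RNA-seq counts are shares: a few transcripts that take a large part of a library lower the CPM of every other gene in it. The files name genes by Ensembl identifiers without symbols, so the roles of the members are not given here, and neither the tissue labels nor other cell types were checked against marker genes. The members are called by their rank. Identifiers are given for rank 1 (ENSRNOG00000029145), the first under the rule, and for rank 3 (ENSRNOG00000008447), the first of the members under the other scaling described below. This pair was chosen after the values were seen.

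Total counts ran from 21992859 to 31799879 per library. Hippocampal libraries of sham rats 4 and 5 stood apart, with a median log2(CPM + 1) of 3.95 and 4.05 over the 10572 genes, against 4.79, 4.89 and 4.87 in sham rats 1, 2 and 3 and 4.84 to 5.00 in the TBI rats. All of their 10 most counted genes were members. Rats 3 and 8 also went against their labels. Between these rats, 33 genes differed at least 4-fold in the same direction in cortex and thalamus. Of these, 32 had the opposite sign in hippocampus (97.0%), whatever the size of the difference there. An exchange of these hippocampal libraries would give that pattern. Its cause was not tested. The same held for 4 of 317 gene and pair combinations among the other 16 pairs of a sham and a TBI rat without rats 3 and 8 (1.26%). None of the 33 genes was a member. The hippocampal results are given as labelled, and the main medians and counts over the members also without these libraries. For single members and groups of copies, d is given with all libraries only.

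The members fell into 24 abundant genes, with a mean CPM of at least 500 in an area, and 126 others. This limit was set after the values were seen, in a gap between 417 (the highest of the others) and 788 (the lowest abundant gene). The counts are not divided by gene length, so a share of counts is not a share of transcripts. In the sham rats 1 to 5 the 24 abundant genes took 36.1%, 26.7%, 19.1%, 26.4% and 21.4% of all counts of the cortex. In the TBI rats 6 to 10 they took 11.3%, 28.6%, 27.0%, 11.8% and 14.2%. TBI rats 6, 9 and 10 lay below every sham rat and rats 7 and 8 among or above them, so the groups overlapped.

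In hippocampus the 24 abundant genes took 19.6%, 17.2%, 19.5%, 53.7% and 52.5% of the counts in sham, in the same order of rats, and 17.8%, 12.4%, 14.5%, 17.8% and 9.07% after TBI. Sham rats 4 and 5 stood far above all others, while sham rat 2 lay just below TBI rats 6 and 9. In thalamus the share was small, 1.57% to 2.90% in sham and 1.31% to 3.23% in TBI, with full overlap. The other 126 members together took 0.247% to 0.428% of the counts of a library over all 30 libraries.

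**Figure D1:**
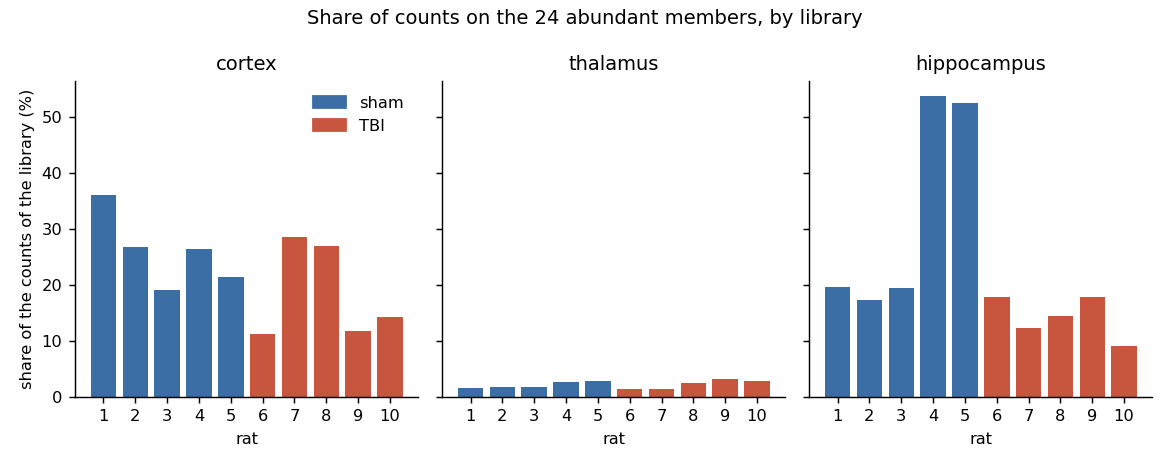
Share of the counts of each library (percent, linear axis from 0) that fell on the 24 abundant members, by rat and brain area; blue bars are sham rats 1 to 5 and red bars are TBI, rats 6 to 10. The hippocampal libraries of sham rats 4 and 5 reach 53.7% and 52.5%, and no thalamic library exceeds 3.23%.

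Of the 24 abundant genes, 13 lay in 2 groups whose CPM agreed within 1.05-fold in each of the 30 libraries. Whether these genes share reads or sequence was not tested. Their separate values are uncertain, and each group, called a group of copies here, is best read as a single measurement. The first group (6 members, ranks 19 to 26) had d of -0.38 in cortex, 0.05 in thalamus and -1.06 in hippocampus. The second (7 members, ranks 32 to 38) had d of -0.72, 0.08 and -1.12, the lowest values of any member in cortex and hippocampus. No gene outside the members matched either group.

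The member of rank 32 stands for the second group. In hippocampus its CPM was 5879, 5417, 5124, 16908 and 15589 in sham and 4971, 3559, 3836, 4933 and 2620 after TBI, again in the order of rats. All TBI rats lay below all sham rats here, with sham rat 3 only just above TBI rat 6 and sham rats 4 and 5 far above the rest. In cortex it was 11161, 8276, 4869, 8162 and 7009 in sham and 2791, 8234, 7534, 2863 and 4319 in TBI, with TBI rats 7 and 8 inside the sham range. In thalamus it was 303, 246, 281, 483 and 594 in sham and 209, 205, 422, 669 and 642 in TBI, with complete overlap.

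The abundant members as a set followed the same pattern. Their median d was -0.57 in cortex, 0.06 in thalamus and -1.08 in hippocampus, and 22, 4 and 24 of the 24 were below 0. The thalamic sign changed with single rats: without rat 2, 3, 8, 9 or 10 the median was -0.06, -0.01, -0.03, -0.13 or -0.11 and 19, 21, 15, 21 or 16 genes were below 0, while without rat 4, 5, 6 or 7 the median was 0.18 to 0.26 and 0 were. In hippocampus all 24 stayed below 0 without any 1 rat. Without the hippocampal libraries of rats 4 and 5 their hippocampal median was -0.46, and without those of rats 3 and 8 it was -1.23. They varied together: with 1 gene taken per copy group, the median Pearson correlation between pairs of these 13 genes, of their log2 deviations from the group mean over 10 libraries, was 0.957 in cortex, 0.859 in thalamus and 0.932 in hippocampus. These correlations describe 10 libraries, and the genes share those libraries and may share reads. Their median within-group SD on the log2 scale was 0.61, 0.70 and 0.68 in cortex, thalamus and hippocampus, against 0.19, 0.22 and 0.36 over all 10572 genes.

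The 126 other members had a median d of -0.07 in cortex, -0.21 in thalamus and 0.15 in hippocampus. Below 0 were 83, 109 and 10 of them. Their levels were modest, with a mean CPM from 5.02 to 417 over the 3 areas, and their median within-group SD was 0.25, 0.29 and 0.36 on the log2 scale in cortex, thalamus and hippocampus, against 0.19, 0.22 and 0.36 over all 10572 genes. For 109 of the 126 the largest d lay in hippocampus, and for 94 the lowest lay in thalamus.

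Over all 150 members d was below 0 in 105 in cortex, 113 in thalamus and 34 in hippocampus, beside 22.2%, 52.8% and 0.482% of the 10572 genes. The hippocampal 34 became 71 without rat 4 or without rat 5 and 147 without the hippocampal libraries of both. Of all genes, 0.948%, 0.967% and 22.8% were then below 0 in hippocampus. The most frequent pattern was lower in cortex and thalamus and higher in hippocampus (71 members, 47.3%, beside 18.8% of the 10572 genes). Another 31 were lower only in thalamus (20.7%, beside 33.8%), and 9 were higher in all 3 areas (6%, beside 43.8%). Lower in cortex and hippocampus but higher in thalamus were 22 (14.7%, beside 0.284%). Median d was -0.12, -0.16 and 0.12, against 0.16, -0.02 and 0.42 over the 10572 genes. The hippocampal median of 0.12 was 0.0032 without rat 4, 0.0098 without rat 5, 0.24 without rat 2 and -0.20 without the hippocampal libraries of rats 4 and 5, and the cortical median of -0.12 was -0.07 without rat 7 and the thalamic -0.16 was -0.10 without rat 8. In hippocampus 99.5% of the 10572 genes had d above 0, and the rule did not centre d on these medians. The last members taken (ranks 149 and 150) had a largest d of 0.191223 and 0.191776, and the first genes left out had 0.191815 and 0.19204.

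Scaling by TMM (trimmed mean of M values, which sets library sizes so that most genes are level) brought the median d of all genes near 0 in each area. TMM library sizes of hippocampal rats 4 and 5 were 0.57 and 0.61 times their column sums and those of the other hippocampal libraries 1.06 to 1.23 times. Median d over 10519 genes was then -0.05 in cortex, -0.04 in thalamus and -0.01 in hippocampus. On this scale 149 members were below 0 in cortex, 115 in thalamus and 150 in hippocampus, beside 58.6%, 55.7% and 55.1% of all genes. In all 3 areas 114 of the 150 were below 0 (76%), 110 of them among the 126 others, beside 32.3% of all genes. The median d of the others was -0.27, -0.23 and -0.28, and that of the abundant members -0.79, 0.05 and -1.53. The last value was -0.56 without the hippocampal libraries of rats 4 and 5 and -1.78 without those of rats 3 and 8. After TMM scaling most of the less abundant members and 4 of the 24 abundant ones thus met the name of the set. This gives no support to the name, since the rule had kept the largest d of every member below 0.192. Between the scalings the hippocampal median d of all genes went from 0.42 to -0.01. The same rule applied to TMM values took 60 of the 150 again and none of the abundant genes.

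**Figure D2:**
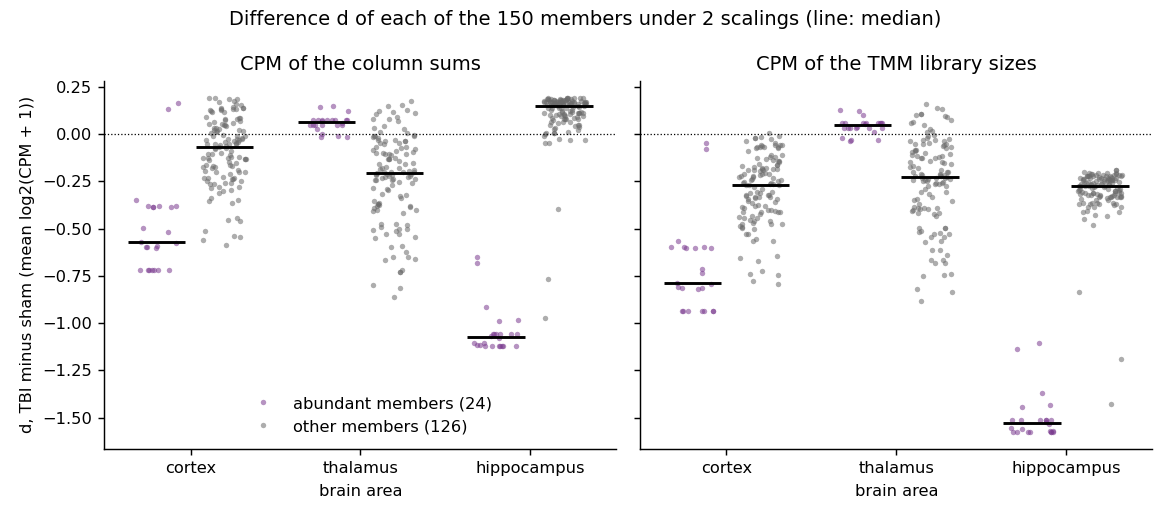
Difference d (TBI minus sham, mean log2(CPM + 1) of 5 rats each) of every member in the 3 areas, with CPM from column sums (left) and from TMM library sizes (right); purple points are the 24 abundant members, grey points the 126 others and black lines medians. In hippocampus the median of the others moves from 0.15 to -0.28 between the scalings, while abundant members in thalamus stay near 0 (0.06 and 0.05).

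The levels of the others after TMM scaling are given by library as a description, since TBI values below sham values in these libraries chose the members. In hippocampus the median log2(TMM CPM + 1) of the 126 genes was 3.66, 3.82, 3.65, 3.82 and 3.75 in sham (in the order of rats 1 to 5) and 3.41, 3.51, 3.55, 3.42 and 3.15 in TBI (6 to 10). Every TBI rat lay below every sham rat, and sham rat 3 was the lowest sham and TBI rat 8 the highest TBI value. With the libraries of rats 4 and 5 left out, the median d of the others was -0.26, and with those of rats 3 and 8 left out it was -0.33. In cortex the same level was 4.06 to 4.16 in sham and 3.76 to 3.95 in TBI, again without overlap. In thalamus it was 4.06 to 4.22 in sham and 3.63 to 4.07 in TBI, where TBI rat 9 reached into the sham range.

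**Figure D3:**
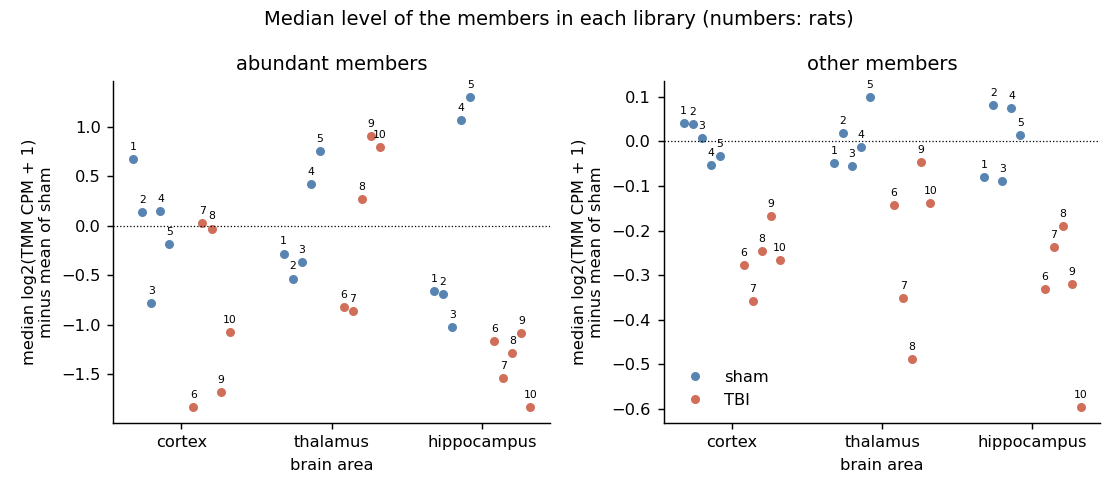
Median log2(TMM CPM + 1) of the abundant members (left) and of the other members (right) in each library, minus the mean of the 5 sham libraries of the area; blue points are sham, red points TBI and the numbers are rats. Among the other members the groups do not overlap in cortex and hippocampus, and in thalamus TBI rat 9 lies within the sham rats.

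The 7 members that were below 0 in all 3 areas by column sums were 5 modest genes (ranks 1, 2, 3, 5 and 6) and 2 abundant ones (ranks 4 and 7). For rank 1, ENSRNOG00000029145, CPM in hippocampus was 31.0, 139.5, 26.1, 14.3 and 65.8 in sham (in the order of rats 1 to 5) and 18.4, 25.5, 38.9, 35.0 and 41.7 in TBI (6 to 10). Only sham rats 2 and 5 exceeded the TBI rats, so d of -0.40 there rested on that pair. In thalamus it was 22.3, 59.9, 24.5, 37.1 and 187 in sham and 26.2, 13.1, 38.6, 64.3 and 166 in TBI. Sham rat 5 and TBI rat 10 stood apart within their groups and d was -0.13. In cortex, with d of -0.20, it was 42.5, 48.9, 41.1, 47.0 and 62.6 in sham and 33.4, 44.7, 46.3, 42.3 and 42.2 in TBI. With TMM library sizes d was -0.41 in cortex, -0.15 in thalamus and -0.83 in hippocampus, where sham rats 2 and 5 were at 124 and 108 CPM, the other sham rats at 23.6 to 29.4 and the TBI rats at 15.9 to 33.9.

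Rank 2 had its lowest d in cortex. There its CPM was 24.6, 41.1, 45.2, 36.3 and 48.7 in sham and 29.3, 17.1, 20.9, 36.2 and 31.0 in TBI, with d of -0.54. TBI rats 7 and 8 lay below every sham rat and sham rat 1 among the TBI rats. In thalamus d was -0.03 and in hippocampus -0.05, with means of 18.2 ± 3.69 and 18.1 ± 6.07 CPM in thalamus and 27.1 ± 8.75 and 25.7 ± 6.16 CPM in hippocampus (sham and TBI, SD, n = 5 each). With TMM library sizes d was -0.75 in cortex, -0.05 in thalamus and -0.48 in hippocampus, where the means were 30.6 ± 3.77 in sham and 22.0 ± 5.56 in TBI (SD, n = 5 each). All TBI rats but rat 8 then lay below every sham rat in hippocampus.

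Rank 3, ENSRNOG00000008447, was lower in cortex and thalamus on either scaling. In cortex its CPM was 20.1, 23.7, 25.4, 21.0 and 17.4 in sham and 13.5, 14.1, 10.3, 13.9 and 18.7 in TBI, and in thalamus 18.1, 13.5, 22.1, 16.5 and 13.7 in sham and 18.7, 8.93, 5.96, 6.82 and 8.68 in TBI. TBI rat 10 in cortex and TBI rat 6 in thalamus lay within the sham range and the other 4 TBI rats below it, with d of -0.59 and -0.80. In hippocampus it was 9.82, 8.24, 7.34, 4.37 and 3.59 in sham and 4.73, 7.70, 7.50, 6.07 and 5.12 in TBI, where rats 4 and 5 were the lowest of all 10 and d was -0.03. With TMM library sizes the hippocampal values were 9.31, 7.32, 6.64, 7.67 and 5.90 in sham and 4.08, 6.32, 6.50, 5.55 and 4.16 in TBI. On that scale d was -0.79 in cortex, -0.82 in thalamus and -0.41 in hippocampus, the lowest largest d of any member, and the cortical groups did not overlap.

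Rank 5 was lower mainly in thalamus. Its thalamic CPM was 85.8, 133, 96.3, 85.8 and 91.5 in sham and 71.3, 36.4, 42.1, 70.7 and 53.9 in TBI, with every TBI rat below every sham rat and d of -0.86, the lowest of any member in thalamus. In cortex it averaged 16.1 ± 1.59 in sham and 15.5 ± 2.16 in TBI and in hippocampus 5.70 ± 3.21 and 5.15 ± 1.57 (SD, n = 5 each), where d was -0.05 and -0.01. With TMM library sizes d was -0.26, -0.88 and -0.37 in cortex, thalamus and hippocampus.

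Rank 6 was lower in thalamus and slightly in cortex. In thalamus its CPM was 33.5, 26.6, 39.9, 37.6 and 32.0 in sham and 28.6, 16.8, 13.9, 25.2 and 23.2 in TBI. In cortex it was 9.71, 11.0, 11.2, 9.82 and 10.9 in sham and 10.2, 8.68, 8.98, 9.01 and 10.5 in TBI. Only TBI rat 6 reached the sham range in thalamus, and TBI rats 6 and 10 did so in cortex. In hippocampus, with d of -0.003, it was 27.8, 26.1, 21.0, 12.3 and 11.3 in sham and 12.5, 18.8, 23.2, 18.6 and 21.2 in TBI. After TMM scaling the cortical groups no longer overlapped, at 10.8 to 12.2 CPM in sham and 7.94 to 9.46 in TBI, and the hippocampal means were 21.8 ± 3.18 and 16.1 ± 3.40 (SD, n = 5 each).

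Ranks 4 and 7 were abundant genes with a cortical d of -0.59 and -0.58 and a thalamic d near 0, at -0.015 and -0.0011. Rank 7 averaged 62564 ± 38309 CPM in hippocampus of sham and 26526 ± 6503 in TBI rats, and 48075 ± 17907 and 33239 ± 15053 in cortex (SD, n = 5 each). In hippocampus its sham values were 36645, 33271, 38806, 120185 and 83912 and its TBI values 30421, 26534, 28146, 32011 and 15515, so that every TBI rat was below every sham rat. Rank 4 had sham rats 4 and 5 at 66589 and 60526 CPM and the remaining 8 libraries between 11814 and 25422.

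**Figure D4:**
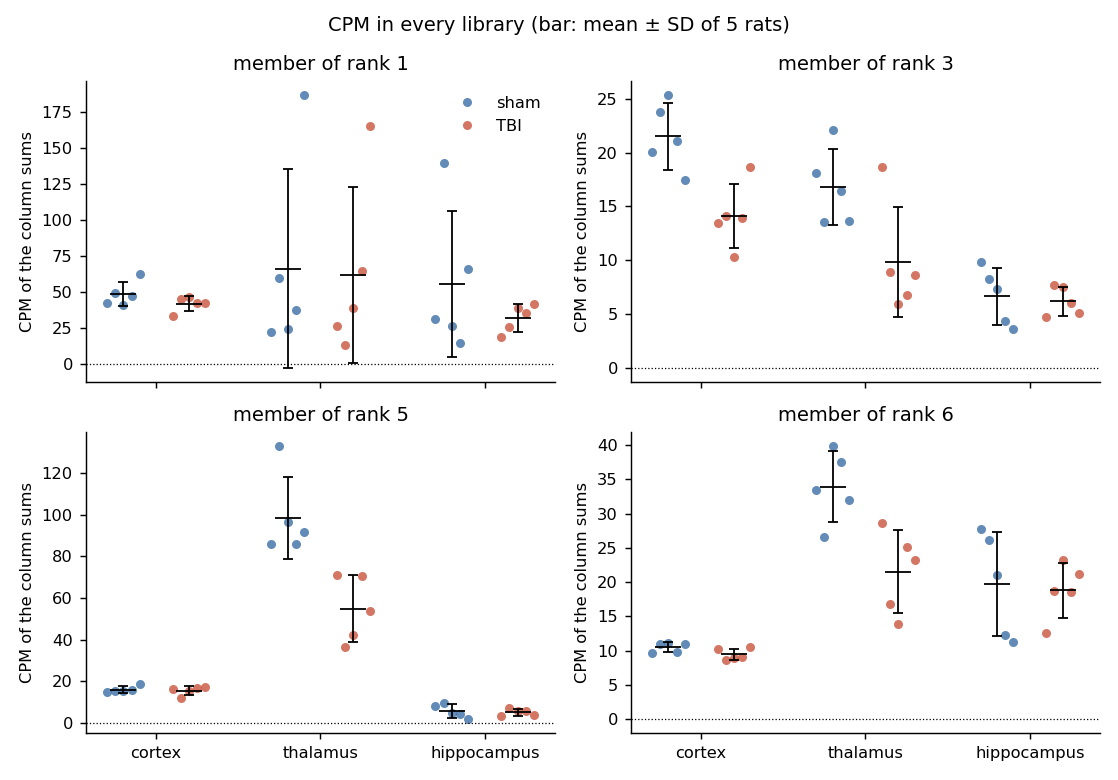
CPM of the column sums of the members of ranks 1, 3, 5 and 6 in every library, by brain area; blue points are sham rats, red points TBI rats, and black bars give the mean ± SD of 5 rats. Rank 5 shows the groups apart in thalamus, where sham averaged 98.5 and TBI 54.9 CPM, and rank 1 shows the wide spread within both thalamic groups.

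Ranks 8 to 12 missed 0 by little in hippocampus, with d from 0.003 (rank 8) to 0.02 (rank 12), and were below 0 in cortex and thalamus. With TMM library sizes each of them was below 0 in all 3 areas, from -0.34 to -0.23 in cortex, -0.68 to -0.18 in thalamus and -0.41 to -0.36 in hippocampus. Rank 8 had the lowest thalamic value of these, with a CPM of 68.5, 52.0, 94.9, 68.8 and 85.1 in sham and 75.1, 36.5, 28.9, 40.5 and 58.6 in TBI. TBI rats 7, 8 and 9 lay below every sham rat and rats 6 and 10 within the sham range.

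Rank 28 was the only member whose groups did not overlap in cortex nor in thalamus. Its cortical CPM was 7.10, 8.65, 8.36, 6.55 and 6.20 in sham and 6.08, 5.59, 3.90, 4.51 and 5.42 in TBI, and its thalamic CPM 10.6, 8.52, 10.3, 12.6 and 14.1 in sham and 8.25, 5.09, 3.86, 5.41 and 7.61 in TBI. The smallest sham value exceeded the largest TBI value in both areas. In hippocampus it averaged 6.82 ± 1.54 in sham and 7.10 ± 1.18 in TBI (SD, n = 5 each), and d was 0.06 by column sums and -0.33 with TMM library sizes. Over all members, every TBI library lay below every sham library for 5 in cortex, 6 in thalamus and 8 in hippocampus, beside 0.974%, 2.06% and 0.0757% of the 10572 genes. The 8 in hippocampus were rank 7 and the 7 members of the second group of copies, hence 2 separate measurements.

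In the edgeR quasi-likelihood fits over all genes (TMM, Benjamini-Hochberg adjusted p under 0.05), 50 members were called lower after TBI in cortex, 7 in thalamus and 0 in hippocampus, and 0 were called higher in any area. Lower calls made up 11.6%, 1.85% and 0% of all genes tested, and higher calls 14.2%, 3.77% and 0%. Nothing is read from these counts, since the same contrast chose the members. Hippocampus had 100 members and 1432 of all 16963 genes tested at an unadjusted edgeR p under 0.05, its smallest adjusted p was 0.48, and DESeq2 called 0 members, beside 8 of 15647 genes lower (0.0511%). Without the hippocampal libraries of rats 3 and 8, edgeR called 6 members lower, beside 17 of 16960 genes tested in that fit (0.1%). The thalamic count changed with single rats: it was 0 without rat 3, 5, 7, 8 or 10, 2 without rat 4, 3 without rat 9 and 19 without rat 6. The share of all genes called lower moved with it, at 0.449%, 0.765% and 6.52% without rats 4, 9 and 6 and at most 0.00597% in the fits that called 0 members. Ranks 6, 28, 54 and 116 were called lower in both cortex and thalamus, beside 195 of the 16208 genes tested in both (1.2%), and nothing is read from this count either. Their fitted log2 fold changes were -0.37, -0.75, -0.47 and -0.46 in cortex, -0.68, -0.92, -0.52 and -0.59 in thalamus and -0.44, -0.37, -0.35 and -0.24 in hippocampus, none of the last called.

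The rule used the levels of the genes only through its limit of 5 CPM in each area. The difference between areas, averaged over sham and TBI, was tested across all 18040 genes with sufficient counts, and the shares given beside the members are those of the 10572 genes that pass the same limit. Between cortex and thalamus 121 of the 150 members passed the test (83 higher in cortex and 38 lower), beside 81.1% of the 10572 genes (33.8% higher and 47.3% lower). Between cortex and hippocampus 88 passed (53 higher in cortex and 35 lower), beside 65.7% (28.8% and 36.8%). Between thalamus and hippocampus 119 passed (44 higher in thalamus and 75 lower), beside 78.2% (41.7% and 36.5%). Thalamus was below both other areas in 63 members, hippocampus in 31 and cortex in 13, beside 26%, 16% and 22.8%. With 1 gene kept per group of copies, 139 members remained, of which 110, 88 and 108 passed the 3 tests and 52 were lowest in thalamus (37.4%). The paper's methods give a different sequencer for thalamus than for the other areas, while the labels give a single one, so area and sequencing cannot be told apart in comparisons with thalamus.

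Abundance and area went together among the abundant members, which were defined by their level, so this is a description. All 24 were higher in cortex than in thalamus, with a median log2 difference of 4.22, and 22 were lower in thalamus than in hippocampus, with a median of -4.44. Between cortex and hippocampus the median was -0.27. The abundant members of ranks 70 and 101 were hippocampal, with medians of 618 and 489 CPM there against 108 and 84.3 in cortex over 10 rats. Rank 27 was higher in cortex than in thalamus by 1.53 and than in hippocampus by 1.33 on the log2 scale.

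Of the less abundant members, rank 57 had the steepest step between cortex and thalamus. Its CPM over 10 rats was 188 to 704 (median 449) in cortex and 5.01 to 18.6 (median 9.52) in thalamus, and the ranges did not overlap. The log2 difference was 5.55 ± 0.46 (SE, edgeR adjusted p = 4.85e-11). Rank 134 went the other way, at 5.68 to 12.3 CPM (median 9.51) in cortex and 57.4 to 184 (median 137) in thalamus, a log2 difference of -3.60 ± 0.17 (edgeR adjusted p = 2.84e-17).

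Some members stood out in thalamus. Rank 5, the member with the lowest thalamic d, was also the one with the highest excess of thalamus over hippocampus, with 36.4 to 133 CPM (median 78.5) against 1.79 to 9.83 (median 5.18) and a log2 difference of 3.47 ± 0.17 (SE, n = 10 rats, edgeR adjusted p = 1.35e-17). Rank 18 was at 75.8 to 137 CPM (median 96.3) in thalamus, 24.3 to 45.1 (median 33.0) in cortex and 5.49 to 10.8 (median 7.13) in hippocampus, so all 3 areas were apart. Rank 47 stood out in cortex, at 79.6 to 147 CPM (median 117) against 12.1 to 29.5 (median 20.5) in hippocampus, a log2 difference of 2.37 ± 0.10 (edgeR adjusted p = 6.86e-19).

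Of the members described above, rank 3 was highest in cortex, by 1.33 ± 0.15 over hippocampus and 0.64 ± 0.15 over thalamus on the log2 scale (SE, n = 10 rats, edgeR adjusted p = 9.27e-09 and 0.000253). Rank 6 was lower in cortex than in thalamus (log2 difference -1.24 ± 0.11) and did not pass the test between thalamus and hippocampus (0.18 ± 0.11, edgeR adjusted p = 0.113). Rank 28 was lower in cortex than in hippocampus (log2 difference -0.32 ± 0.12, edgeR adjusted p = 0.0267) and passed neither test against thalamus. Rank 1 passed none of the 3, with log2 differences of -0.01 ± 0.43, -0.31 ± 0.43 and 0.31 ± 0.43 (cortex minus hippocampus, cortex minus thalamus, thalamus minus hippocampus).

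**Figure D5:**
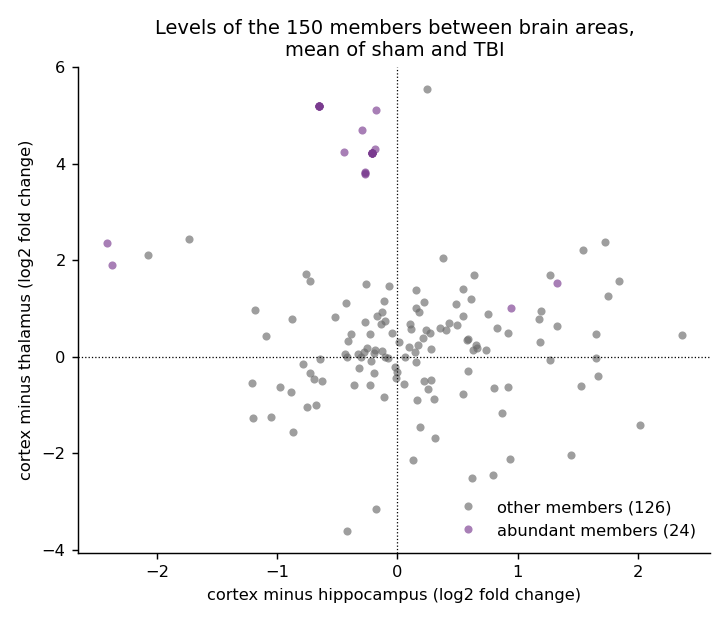
Log2 fold change between cortex and thalamus against that between cortex and hippocampus for each member, averaged over sham and TBI (edgeR, 10 rats per area); purple points are the 24 abundant members, several of them overlying copies, and grey points the 126 others. All abundant members lie above 0 on the vertical axis, with a median of 4.22, while the others spread to both sides of both axes.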

How the data were processed

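The authors deposited raw counts per gene for each area. Per the labels and the paper, poly(A)-selected RNA was sequenced, reads were aligned with STAR to Rnor_5.0 and tested with DESeq2 in R 3.1.0. The counting tool and strand use are not given in the sources used here. The study set aside a pair of hippocampal samples for low alignment, both sham by the group sizes it gives, without naming the rats, and all 30 libraries were used here. The members and lists were chosen with earlier results of these data known. The rule used CPM of column sums with a pseudocount of 1. Members named were drawn from ranks 1 to 12, the 3 with the lowest d per area, the last 2 inside the rule and the 3 most different in each direction per area contrast; ranks 19, 27, 54 and 116 were added after their values were seen. Fits used edgeR 4.0.16 (TMM, filterByExpr, robust quasi-likelihood) in R 4.3.3, with DESeq2 1.42.0 as an alternative and adjusted p under 0.05. The area fit used all 30 libraries, and on simulated data recovered 99% of genes changed 2-fold between cortex and hippocampus or thalamus (17808 genes, 5.71% and 2.94% of calls being unchanged genes). Only 200 genes were changed there, while 61.6% and 78.7% of the genes tested passed in these 2 contrasts of the data. The simulated rates may therefore not carry over. Rat numbers pair the areas, since the same animal gave them. Same-rat deviations correlated on average by 0.158 between cortex and hippocampus, 0.0816 for cortex with thalamus and 0.0478 for thalamus with hippocampus. Single rats ran from -0.0212 to 0.454, -0.19 to 0.407 and -0.272 to 0.362 in the same order. Only 4, 3 and 2 of the 10 rats correlated best with their own number within their group. No 2 libraries of a group were repeats (smallest chi-square per degree of freedom 15.1 over 60 pairs). Planned gene lists, cell type markers, promoter motifs and protein lengths were not run, since 0 identifiers matched a table of names.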

Additional observations from a re-analysis of the deposited data

Results flagged for a closer look

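Among 78 groups of 5 libraries, 8 held a library whose distance to its nearest neighbour exceeded Dixon's 95% limit, and chance alone flags about 1 in 20 groups. For the member of rank 1, thalamus of sham rat 5 stood above its group at 187 CPM. For rank 2, TBI rat 8 in hippocampus (36.4 CPM) and TBI rat 9 in thalamus (28.8 CPM) were above the other TBI rats. For rank 3, thalamus of TBI rat 6 was at 18.7 CPM. For rank 5, sham rat 5 in cortex (18.8 CPM) and sham rat 2 in thalamus (133 CPM) were the high values of their groups. For rank 19, which stands for the first group of copies, thalamus of sham rat 4 was at 179 CPM. The share of counts on the 126 less abundant members was low in cortex of sham rat 1, at 0.319% against 0.370% to 0.384% in the other 4 cortical sham libraries. This is the library in which the abundant members took 36.1%.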

How the results depend on the processing

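The counts of members that differed between areas held under every alternative run. With the rat as a replicate block they were 90 (cortex and hippocampus), 124 (cortex and thalamus) and 122 (thalamus and hippocampus), against 88, 121 and 119 without it, and the block changed no count by over 1.5 times. The TBI differences depended on the scaling. The median d in cortex was -0.12 by column sums, -0.32 with TMM and with RLE library sizes, also when TMM went with leaving out hippocampal rats 3 and 8 or 4 and 5, -0.25 with column sums that omit the abundant members and -0.28 after centring on the median of all genes. Without each rat in turn it ran from -0.17 to -0.07 in cortex (the latter without rat 7) and from -0.19 to -0.10 in thalamus (the latter without rat 8), against -0.16 with all rats. In hippocampus it turned from 0.12 to -0.30 (TMM and RLE), -0.35 (TMM without rats 3 and 8), -0.28 (TMM without rats 4 and 5), -0.25 (sums without the abundant members), -0.30 (centred) and -0.20 (column sums without rats 4 and 5), and without each rat in turn it ran from 0.0032 to 0.24. Members below 0 in hippocampus numbered 34 by column sums, 147 without rats 4 and 5 and 150 under the other alternatives just named (without 1 rat, 26 to 71). The share of all genes below 0 there was 0.482%, 22.8% and 32.5% to 56.3% in the same order (without 1 rat, 0.379% to 0.967%). Members below 0 in all 3 areas numbered 114 with TMM, RLE and both TMM combinations, 97 with sums without the abundant members, 101 when centred and 76 without rats 4 and 5, against 7 (without 1 rat, 1 to 32). The share of all genes below 0 in all 3 areas was 31.65% to 34.01%, 16.47%, 24.45% and 8.08% in the same order, against 0.0662% (without 1 rat, 0.019% to 0.31%). The rule took 60 of the 150 again with TMM, RLE or sums without the abundant members, 45 and 40 with TMM without rats 3 and 8 or 4 and 5, 57 when centred, 37 without rats 4 and 5, 46 and 84 with a mean CPM of at least 1 or 10, and 80 to 118 without 1 rat. DESeq2 called 18 members lower in thalamus against 7 (without 1 rat, 0 to 19), beside 4.92% of all genes in that fit against 1.85% (without 1 rat, 0% to 6.52%). In hippocampus without rats 3 and 8 edgeR called 6, beside 0.1% of all genes, against 0. Sums without the abundant members, centring and the TMM combinations were chosen after seeing the data. The cause of these differences was not tested. In the shallowest library, with 21992859 counts, 5 CPM is 110 counts.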
